A study of Drosophila melanogaster with 78 samples.

Results

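The 9 genes described here set how much fat a fly stores and when it is released, and they are given together with the circular RNAs made from them. They are Akh, AkhR, bmm, Hsl, Lsd-1, Lsd-2, mdy, FASN1 and ACC, 9 of 17393 gene names in the transcript table, with 31 of its 33570 transcripts. They were chosen by name, 8 by the symbol in the table and FASN1, listed there under the older name CG3523, through its transcript IDs. Among 1194 circular RNAs (circRNAs) with read counts, 4 carried a member in the gene column, namely 1 of Lsd-2, 1 of bmm and 2 of ACC. The flies were females of wDah, an outbred wild-type stock with the white Dahomey background, and of dilp 2-3,5, a mutant in that background that lacks the insulin-like peptide genes Ilp2, Ilp3 and Ilp5. Both stocks carried Wolbachia. Brain, thorax without gut, gut with Malpighian tubules but without the crop, and fat body (the abdominal wall after removal of gut and ovaries) were taken at days 10, 30 and 50. Total RNA was sequenced in 3 replicates per group (72 libraries), and polysome-bound RNA of the day 10 fat body in 3 per genotype. The mutation is present in every cell from the start of life, so its effects in the adult and before it cannot be told apart.

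Adipokinetic hormone (Akh) is the fly's counterpart of glucagon. It is made by the corpora cardiaca, a small gland beside the brain and gut, and acts through its receptor AkhR on fat body cells to release stored lipid and sugar. The stored lipid is triglyceride, held in droplets that are coated by the perilipins Lsd-1 and Lsd-2 and opened by the lipases bmm (brummer) and Hsl (hormone-sensitive lipase). New fat is built by ACC (acetyl-CoA carboxylase) and FASN1 (fatty acid synthase), which make fatty acids, and by mdy (midway), a diacylglycerol acyltransferase that completes the triglyceride. Insulin-like peptides act against Akh in the balance between storage and release.

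The deleted genes followed the labels. Ilp2 stood in brain at 388, 177 and 101 FPKM in wDah at days 10, 30 and 50 and at 0.58, 0 and 0 FPKM in dilp 2-3,5. FPKM (fragments per kilobase of transcript, scaled to 1000000 fragments) were deposited as 1 pooled value for each genotype, tissue and age, so they have no spread over replicates and are given here as the authors' pooled values with no test. The day 10 samples were generated separately from those of days 30 and 50, and the summed FPKM of a group was 718095 to 1.36e+06 at day 10 and 1.94e+06 to 6.50e+06 later. An effect of age between day 10 and the later ages therefore cannot be told apart from that batch, and levels were not compared between them. In the circRNA tables a total RNA library held 503 to 38812 circular and 60382 to 245298 linear reads.

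Lsd-2 gave the circRNA with the most reads among the members and is shown first. The gene lies on chromosome X at 15069127 to 15076220 (BDGP6, minus strand), and circLsd-2 spans X:15073341-15074374. It joins the end of a 51-base coding exon to the start of the 438-base exon upstream of it, 489 bases of exon in all. The 438-base exon is in all 5 annotated isoforms, whereas the 51-base exon is in Lsd-2-RA, Lsd-2-RE and Lsd-2-RF and is skipped in Lsd-2-RB and Lsd-2-RD. The lines below, read from the RefSeq genome of the same build, show the back-splice that counts as a circle, the forward splice into the 51-base exon, the forward splice of Lsd-2-RB that skips it, and the whole exon. Each junction has 20 bases on either side, 5′ to 3′, and capitals mark the 51-base exon.
circLsd-2 backsplice: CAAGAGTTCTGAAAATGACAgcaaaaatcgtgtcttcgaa
Lsd-2 linear: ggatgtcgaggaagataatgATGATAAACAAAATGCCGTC
Lsd-2-RB linear: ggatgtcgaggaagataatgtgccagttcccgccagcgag
Lsd-2 exon of 51 bases: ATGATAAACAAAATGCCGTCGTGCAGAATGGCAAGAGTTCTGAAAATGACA

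The circle of bmm spans 3L:14777339-14777766 (BDGP6, minus strand), inside a gene at 3L:14776496-14786412, and joins 2 exons of 269 and 89 bases that both annotated isoforms hold. Its back-splice and the forward splice between the same exons are shown, since they differ only in the order of the exons, and capitals mark the downstream exon.
circbmm backsplice: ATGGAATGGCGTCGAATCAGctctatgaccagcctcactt
bmm linear: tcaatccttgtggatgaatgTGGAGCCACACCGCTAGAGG

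The circRNAs of ACC are a short circle of 2 exons (508 bases) and a long one of 3 exons (875 bases) that share an end. Their exons are in 5 of 6 ACC isoforms, all but ACC-RE.

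Akh mRNA was read mainly in brain, and it was lower there in dilp 2-3,5 at each age. Akh (3L:4141467-4142070, plus strand) stood at 35.3, 55.0 and 59.1 FPKM in wDah brain at days 10, 30 and 50 and at 18.9, 35.3 and 27.2 FPKM in dilp 2-3,5 brain. At day 50 the 95% limits that the authors' program gave for the transcript were 42.2 to 76.1 FPKM in wDah and 18.4 to 36.0 FPKM in dilp 2-3,5, which did not overlap. The limits overlapped at day 10 (23.6 to 47.0 against 9.7 to 28.0 FPKM) and at day 30 (38.2 to 71.8 against 25.7 to 44.8 FPKM). These limits are no test of the genotypes, and the share of all transcripts with limits apart is not given here. In thorax Akh went from 3.91, 3.90 and 2.63 FPKM in wDah to 2.14, 1.24 and 0.535 FPKM in dilp 2-3,5. In gut it was 3.49, 6.79 and 7.10 FPKM in wDah and 7.58, 7.13 and 7.70 FPKM in dilp 2-3,5, and in fat body no value was above 1.51 FPKM. The hormone gene was thus lower in the mutant in brain and thorax and not in gut. The dissections differ in how much of the corpora cardiaca they could hold, which was not tested. Lst (limostatin), the other gene listed as a marker of those cells, was at 22.8 to 38.3 FPKM in brain but at 179 to 445 FPKM in fat body, so it does not mark them in these tissues. Fewer Akh cells and less Akh RNA per cell cannot be told apart in RNA from whole tissue.

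The receptor AkhR (2L:6711286-6716186, minus strand) was read mainly in fat body, at 112, 140 and 149 FPKM in wDah and at 156, 168 and 122 FPKM in dilp 2-3,5. The difference changed sign at day 50. In brain AkhR was 28.0, 26.7 and 29.9 FPKM in wDah and 19.9, 16.9 and 19.1 FPKM in dilp 2-3,5, lower at each age. Thorax showed the same order, 59.2, 56.0 and 52.5 FPKM against 46.1, 49.9 and 41.6 FPKM. In gut the receptor was low but went the other way, from 1.47, 0.672 and 1.06 FPKM to 3.84, 1.84 and 3.07 FPKM, between 2.61 and 2.91 times the wDah value. On the scale used for counting, log2(FPKM + 1), the gut difference was 0.76 to 0.99 and so under a 2-fold change at each age.

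**Figure D1:**
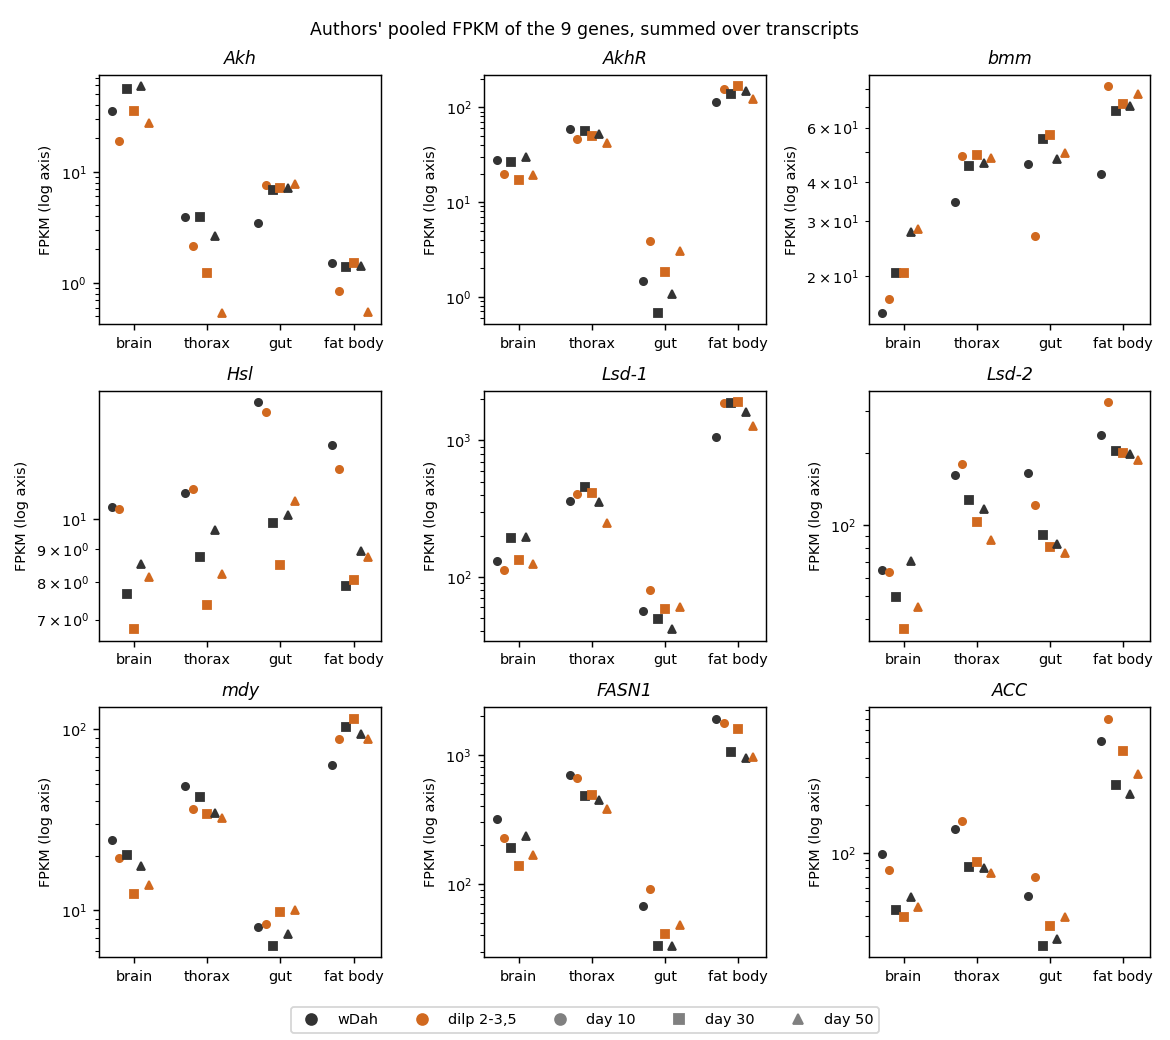
FPKM of the 9 genes in each of the 4 tissues, with 1 point for each of the 24 genotype, tissue and age groups (the authors' pooled value, log axis in FPKM). By the median over ages in wDah, Akh is highest in brain, Hsl in gut and the other 7 genes in fat body, although at day 10 bmm is 45.9 FPKM in gut and 42.7 FPKM in fat body.

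The droplet lipases differed from each other in level. bmm, which cuts triglyceride at the droplet surface, was 42.7, 67.9 and 70.3 FPKM in wDah fat body and 81.7, 71.2 and 77.2 FPKM in dilp 2-3,5 fat body. The largest separation was thus at day 10. In thorax bmm was 34.5, 45.1 and 46.0 FPKM in wDah and 48.6, 49.1 and 47.9 FPKM in dilp 2-3,5, and in brain the genotypes were close (15.2, 20.4 and 27.6 against 16.9, 20.5 and 28.3 FPKM). It was the only member that was not lower in the mutant brain. In gut bmm was lower in dilp 2-3,5 at day 10 (45.9 against 26.8 FPKM) and slightly higher later (55.1 and 47.4 against 56.8 and 49.6 FPKM). Hsl, the lipase that acts on diacylglycerol in mammals and at the droplet in flies, stayed between 6.76 and 15.1 FPKM in all 24 groups. It had the narrowest range of the 9.

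The perilipin transcripts were higher in fat body than in brain, thorax or gut. Lsd-1 (3R:23763857-23766662, plus strand), on whose protein Akh-driven lipolysis depends, was 1066, 1881 and 1618 FPKM in wDah fat body and 1895, 1908 and 1270 FPKM in dilp 2-3,5. In brain it was 131, 193 and 196 FPKM in wDah and 111, 134 and 123 FPKM in the mutant, and in gut 56.5, 49.3 and 41.1 against 79.5, 58.4 and 59.6 FPKM. Lsd-1 was therefore lower in the mutant brain and higher in the mutant gut at each age. In Lsd-1, 1 exon overlaps CG10214 on the opposite strand, which was at most 30.0 FPKM. Lsd-2, which shields stored fat from lipases, was 239, 204 and 199 FPKM in wDah fat body and 328, 200 and 187 FPKM in dilp 2-3,5. It was the only member lower in the mutant gut at each age, at 165, 90.7 and 83.3 FPKM in wDah and 121, 80.8 and 76.2 FPKM in dilp 2-3,5. In brain Lsd-2 was nearly equal at day 10 (64.3 against 63.5 FPKM) and lower in the mutant later (49.6 and 70.7 against 36.3 and 45.2 FPKM).

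The genes that make fat were high in fat body and went in opposite directions in brain and gut. FASN1 (2L:3056598-3068177, plus strand) was 1908, 1046 and 952 FPKM in wDah fat body and 1754, 1571 and 966 FPKM in dilp 2-3,5. In brain it was 318, 190 and 236 FPKM in wDah and 226, 137 and 168 FPKM in the mutant, a ratio of 0.711 to 0.723 at the 3 ages. In gut FASN1 went from 67.9, 33.2 and 33.2 FPKM to 91.2, 41.2 and 47.7 FPKM. ACC, which supplies FASN1 with malonyl-CoA, was 512, 269 and 236 FPKM in wDah fat body and 706, 438 and 317 FPKM in dilp 2-3,5, higher at each age. ACC and bmm were the members that were higher in the mutant fat body at all 3 ages. In gut ACC was 53.7, 25.9 and 28.8 FPKM in wDah and 70.9, 34.6 and 39.3 FPKM in the mutant, also higher at each age. mdy (2L:16816660-16826964, plus strand) was 63.6, 103 and 94.2 FPKM in wDah fat body and 88.1, 115 and 88.5 FPKM in dilp 2-3,5, and in brain 24.5, 20.3 and 17.6 against 19.4, 12.4 and 13.7 FPKM.

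In brain 8 of 9 members were lower in dilp 2-3,5 at each age, and the same 8 at all 3. Over all genes 54.1, 55.1 and 51.6% were higher in the mutant brain at days 10, 30 and 50. In gut 6 members were higher at all 3 ages and 1, Lsd-2, was lower. Over all genes 49.2, 52.8 and 53.6% were higher in the mutant gut at those ages. In thorax 3 were lower and 1 higher at all ages, and in fat body 2 were higher and none lower. At a given age 50.8 to 51.2% of all genes were higher in the mutant thorax and 47.4 to 52.2% in the mutant fat body. The share of all genes with the same sign at all 3 ages is not given here, for any tissue. The median log2 difference of the members in brain was -0.32, -0.46 and -0.49 at days 10, 30 and 50, where the median over all genes was 0.03, 0.03 and 0.01. In gut the members' median was 0.39, 0.24 and 0.40 beside 0.00, 0.02 and 0.02 over all genes. In fat body it was 0.46, 0.07 and -0.09 beside 0.02, 0.01 and -0.02 over all genes. In thorax it was 0.02, -0.17 and -0.24 beside 0.01, 0.00 and 0.01.

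Few of these differences reached 2-fold on the log2(FPKM + 1) scale. Of 27 values per tissue (9 genes at 3 ages), 1 was 2-fold lower in brain (Akh at day 50), where 2.49% of all gene values were, and none was 2-fold higher, where 0.913% were. In thorax 2 were 2-fold lower (Akh at days 30 and 50), beside 3.11% of all values, and none higher, beside 1.31%. In gut none was 2-fold higher or lower, beside 2.85% and 2.64%. In fat body none passed either way, beside 2.95% higher and 4.35% lower. The members' counts are near these backgrounds and are no result about the members.

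**Figure D2:**
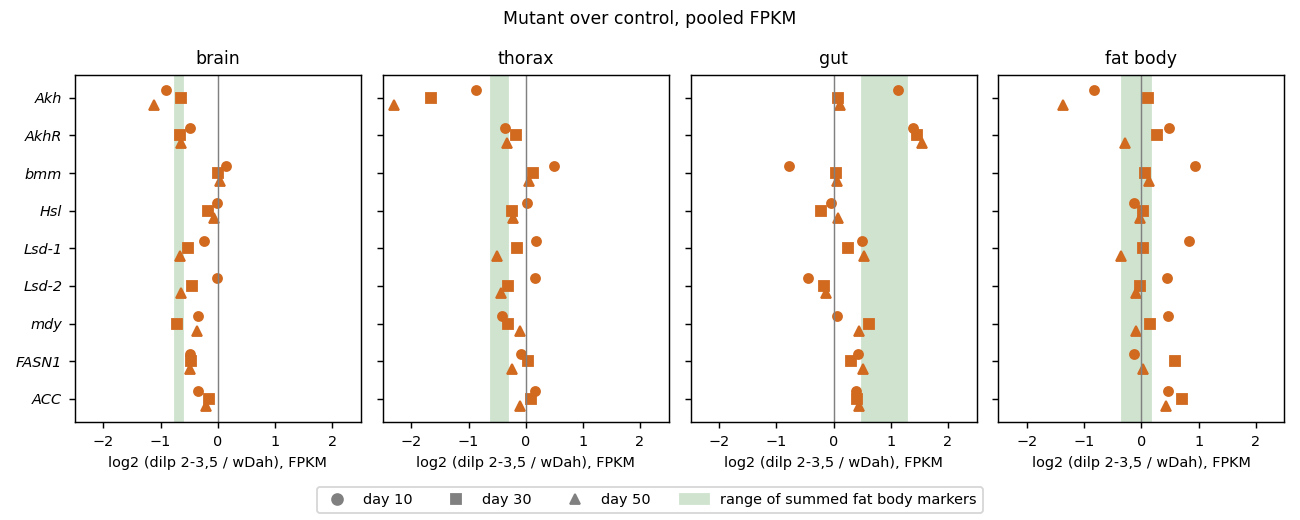
log2 of FPKM in dilp 2-3,5 over wDah for each of the 9 genes at days 10, 30 and 50 (1 point each) in the 4 tissues, from the authors' pooled values without an added constant, with a band for the range of the 6 summed fat body markers (Yp1, listed at 0 in wDah fat body at day 10, included). In brain 8 of 9 genes lie below 0 at each age, Hsl and Lsd-2 close to 0 at day 10, and in gut 6 lie above 0 at all 3. Over all genes 51.6 to 55.1% were above 0 in brain and 49.2 to 53.6% in gut at a given age.

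The summed fat body markers (Yp1, Yp2, Yp3, Lsp2, fon and apolpp, 6 of 6 found) moved the same way as most members in brain and gut. In brain they were 9458 to 23774 FPKM in wDah and 6183 to 14843 FPKM in dilp 2-3,5, a ratio of 0.593 to 0.654. In gut they were 429 to 1197 FPKM in wDah and 868 to 1699 FPKM in dilp 2-3,5, a ratio of 1.42 to 2.43. In thorax the ratio was 0.653 to 0.805 and in fat body 0.792 to 1.12. There the markers and members did not always go together. In thorax at day 10 the ratio was 0.653 while 5 of 9 members were higher in the mutant. In fat body at day 30 it was 0.792 while 8 of 9 were higher. Yp1 is listed at 0 in wDah fat body at day 10, and without it, a setting chosen after its values were seen, the ratio was 0.749 to 0.902 in fat body, 0.561 to 0.617 in brain, 0.601 to 0.771 in thorax and 1.17 to 2.37 in gut. Neuron markers (4 of 4) were 1.17 to 1.41 times as high in the mutant brain and photoreceptor markers (3 of 3) 0.315 to 0.585 times, and gut enterocyte markers (4 of 4) 0.395 to 0.617 times. In the mutant gut the sums of other lists were higher too, haemocyte markers (3 of 3) 1.96 to 3.47 times, oenocyte markers (3 of 4) 1.25 to 5.51 times, Malpighian tubule markers (3 of 3) 1.10 to 1.89 times and muscle markers (4 of 4) 1.25 to 1.46 times. The bracketed counts are markers found, and single markers could go the other way. Act88F of the muscle list went from 1.51, 5.57 and 5.27 to 0.69, 1.19 and 1.80 FPKM in gut. In the fat body list, Yp3 was lower in the mutant gut at day 10 (379 against 354 FPKM). Lsp2 was higher in the mutant brain at day 50 (8.32 against 18.7 FPKM). In fat body the gut enterocyte markers (4 of 4) were at 421 to 1652 FPKM in wDah and at 83.2 to 95.8 FPKM in dilp 2-3,5. Summed ovary markers (5 of 5) in fat body were at 1314, 283 and 132 FPKM in wDah at days 10, 30 and 50. In dilp 2-3,5 they were at 141, 64.0 and 323 FPKM, so the difference changed sign at day 50. The part of these tissues in the members' differences was not tested, and fewer cells of a type and less RNA per cell cannot be told apart.

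The members differed in how steeply they separated the tissues. Between the medians of the 3 wDah ages, fat body exceeded gut 132-fold for AkhR, 32.8-fold for Lsd-1, 31.5-fold for FASN1, 12.8-fold for mdy and 9.35-fold for ACC. Lsd-2, bmm and Hsl, in contrast, were read in gut at levels closer to those of fat body, as given above. Day 50 differed from day 30 by less than 2-fold for all members in all 8 genotype and tissue comparisons on the log2(FPKM + 1) scale, where 1.24 to 2.98% of all genes were 2-fold higher and 1.003 to 5.21% lower, so none of 9 is near the background. bmm in brain was 1.35 times as high at day 50 in wDah and 1.38 times in dilp 2-3,5. In dilp 2-3,5 fat body Lsd-1 was 0.67 times and FASN1 0.61 times its day 30 value.

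Isoform use of Lsd-2 and ACC differed between fat body and gut. Lsd-2-RA, which holds the 51-base exon printed above, took 53.9 to 61.8% of the gene's FPKM in fat body, 49.8 to 66.1% in brain and 7.18 to 14.1% in gut. Lsd-2-RB, which skips it, took 18.5 to 25.7% in fat body and 67.2 to 77.7% in gut. The ranges of these isoforms in fat body and gut did not overlap over the 6 groups of each tissue. The share of all genes with isoform ranges apart in this way is not given here. ACC-RE took 47.7 to 58.3% of ACC in gut and 1.46 to 3.3% in fat body. bmm-RB held 96.7 to 99.5% of bmm in every group and the 1432-base transcript of Lsd-1 80.3 to 93.8% of that gene. These are estimates by the authors' program from reads that isoforms share, and their error over replicates is unknown.

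For a circRNA the measure was the number of circular reads, which cross the back-splice, over the number of linear reads that the authors' caller gave for the same circRNA. Whether those are reads at both ends, at one of them or their mean is not given in the sources used here, so the ratio serves to compare libraries and is not a share of molecules. In fat body circLsd-2 had a circular to linear ratio of 0.0296 to 0.288 over 18 libraries with a median of 0.125, in brain 0.0195 to 0.333 with a median of 0.0676, and in thorax 0.0175 to 0.136 with a median of 0.0400. In gut the ratio was 0 to 0.0351 with a median of 0.00733, and 6 of 18 libraries had no circular read. Those 6 libraries held 30 to 89 linear reads, which allows a circular share of up to 3.37 to 10.0% (3 reads of the total). Over all gut libraries 24 circular reads stood beside 2354 linear ones. Isoforms with the 51-base exon took 12.4 to 18.2% of Lsd-2 FPKM in gut, 49.2 to 72.1% in thorax, 53.5 to 75.4% in brain and 59.9 to 75.3% in fat body. The tissue where the circle was rarest per linear read was also the tissue where the exon was least used. circbmm, whose exons are in isoforms with 100% of bmm FPKM in every tissue, also had its lowest median ratio in gut (0). The median pooled ratio over the circRNAs ranked in each tissue was lowest in gut too. It was 0.106 there, 0.159 in thorax, 0.164 in fat body and 0.226 in brain. Whether the circLsd-2 ratio depends on use of the exon was not tested.

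The other circles had fewer circular reads than circLsd-2 in each tissue. Per linear read circbmm was not rarer in gut or thorax. Its pooled ratio was 0.0238 and 0.0448 there, against 0.0102 and 0.0428 for circLsd-2. circbmm had a median ratio of 0.0693 in fat body, and 10 of 18 gut libraries had no circular read of it. The long circle of ACC had a median ratio of 0.0296 in fat body and the short one 0.0148. In gut the long circle gave 1 read in 18 libraries and the short circle 4, so neither could be compared there. The libraries without a read there held 13 to 100 linear reads for the long circle, which allows a circular share of up to 3.00 to 23.1%.

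**Figure D3:**
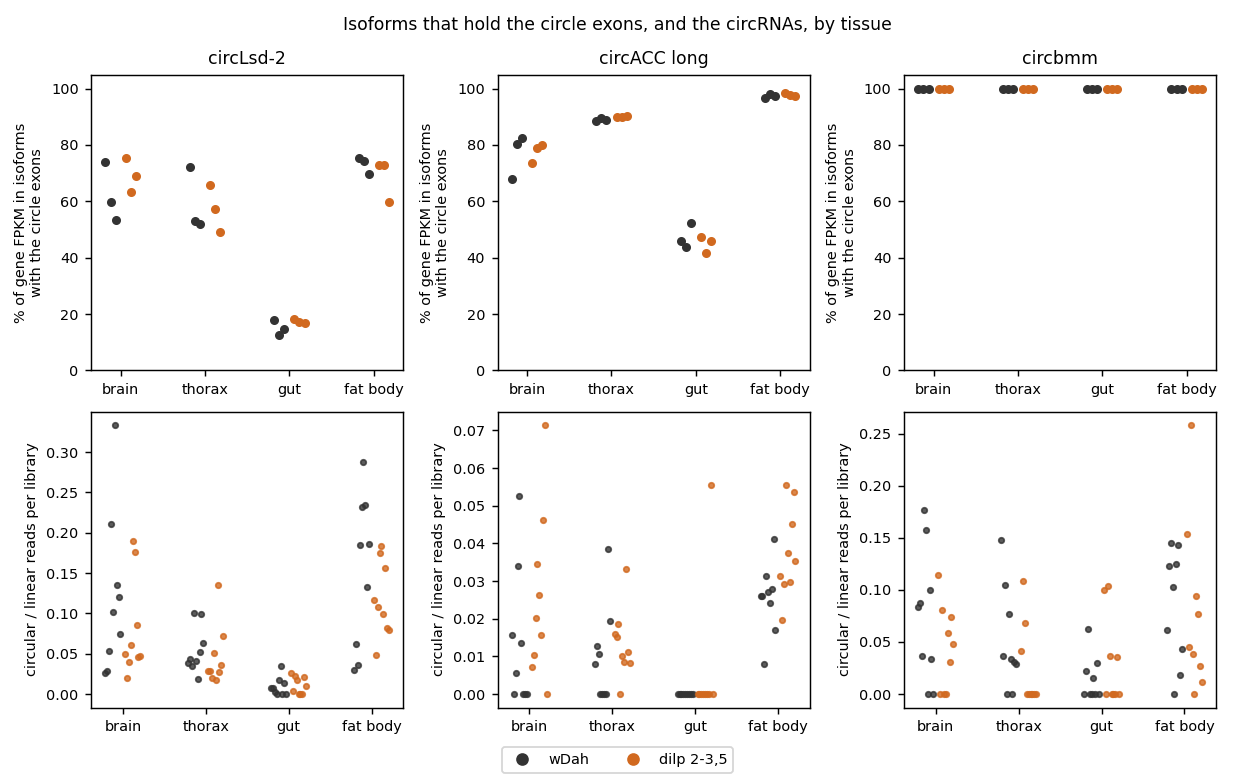
Upper row, the percent of a gene's FPKM in isoforms that hold the exons of the circle, with 1 point per group. Lower row, the circular to linear ratio in each of 18 total RNA libraries per tissue, by genotype, for circLsd-2, the long circle of ACC and circbmm. circLsd-2 lies at 0 to 0.0351 in gut and at 0.0296 to 0.288 in fat body, and its exons are in isoforms with 12.4 to 18.2% of the FPKM in gut.

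In fat body circLsd-2 had 15 to 98 circular reads in each library. At day 10 the wDah libraries held 26, 42 and 27 circular beside 877, 670 and 761 linear reads, and the dilp 2-3,5 libraries 91, 45 and 61 beside 777, 933 and 566. The mean ratio was 0.0426 ± 0.0176 (SD, n = 3) in wDah and 0.0910 ± 0.0374 (SD, n = 3) in dilp 2-3,5, and the groups overlapped. The log2 difference was 1.07 (SE 0.42) with an adjusted p of 0.112 in edgeR's quasi-likelihood test, over all circRNAs tested. At the same age the median log2 difference over all circRNAs of fat body was 0.81, so most circles shifted in that direction. Leaving out wDah replicate 2 or dilp 2-3,5 replicate 2 made the difference 1.41 or 1.45, with an adjusted p of 0.0262 or 0.00571 (edgeR).

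At days 30 and 50 the difference had the other sign. At day 30 the wDah libraries held 39, 37 and 98 circular beside 211, 160 and 340 linear reads, and the dilp 2-3,5 libraries 15, 24 and 24 beside 86, 131 and 242. The mean ratio was 0.235 ± 0.0518 (SD, n = 3) in wDah and 0.152 ± 0.0462 (SD, n = 3) in dilp 2-3,5, with a log2 difference of -0.73 (SE 0.31, edgeR adjusted p = 0.919). All wDah ratios were above those of the mutant, though the nearest were 0.185 and 0.183. At day 50 the wDah libraries held 36, 28 and 45 circular beside 154, 210 and 242 linear reads, and the dilp 2-3,5 libraries 17, 17 and 26 beside 109, 206 and 329. The log2 difference was -0.90 (SE 0.33, edgeR adjusted p = 0.399), with 1 mutant library (0.156) above the lowest wDah library (0.133). With the replicate number as a block, the log2 difference was -0.89 with an adjusted p of 0.0189 (edgeR). The labels name no pairing of these libraries, so the block is a sensitivity setting.

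**Figure D4:**
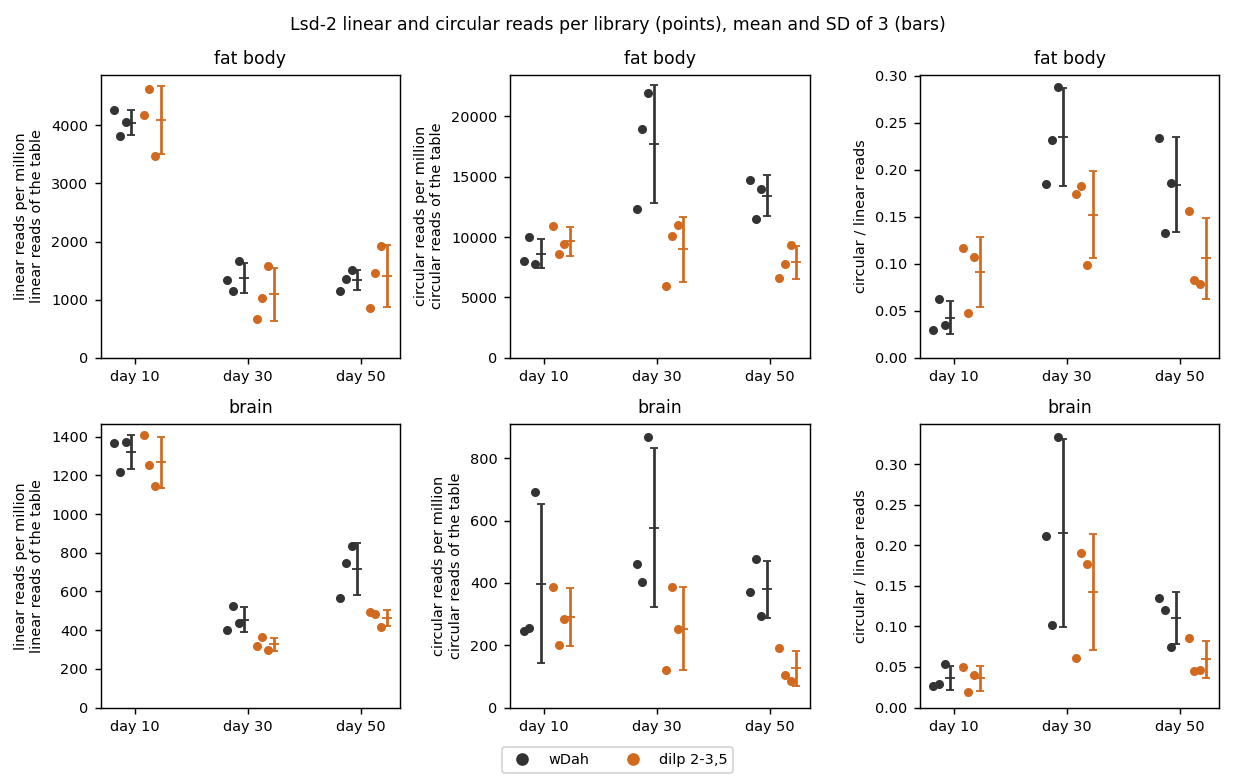
Linear and circular reads of Lsd-2, each scaled to the reads of that kind in the table, and the circular to linear ratio in every library of fat body (upper row) and brain (lower row) at days 10, 30 and 50, with the mean and SD of 3 replicates per genotype. The mean ratio in fat body is 0.0426 in wDah and 0.0910 in dilp 2-3,5 at day 10, and 0.235 and 0.152 at day 30.

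The circular reads alone were lower in dilp 2-3,5 at the later ages without passing the threshold. Scaled to 1000000 circular reads per library, circLsd-2 was 12322 to 21909 in wDah and 5924 to 10969 in dilp 2-3,5 at day 30, and 11508 to 14736 and 6628 to 9326 at day 50. The groups did not overlap at either age. The share of all circRNAs with groups apart is not given here, for this or any other comparison. The log2 differences were -0.94 (SE 0.26, edgeR adjusted p = 0.0798) and -0.85 (SE 0.24, edgeR adjusted p = 0.103), beside 0.27 (adjusted p = 0.752) at day 10. The day 30 difference passed on leaving out wDah replicate 1 (-1.10, adjusted p = 0.0258) or wDah replicate 2 (-0.91, adjusted p = 0.0353, edgeR). Linear Lsd-2 reads had log2 differences of -0.02 and 0.00 at these ages.

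In brain both circLsd-2 and linear Lsd-2 reads were lower in the mutant at day 50. The wDah libraries held 10, 14 and 10 circular and 74, 116 and 134 linear reads, and the dilp 2-3,5 libraries 7, 3 and 3 circular and 82, 66 and 64 linear reads. Scaled to 1000000 linear reads per library, Lsd-2 was 566 to 833 in wDah and 417 to 494 in dilp 2-3,5, a log2 difference of -0.89 (SE 0.13, edgeR adjusted p = 0.000711) with no overlap. Lower Lsd-2 is also what the pooled FPKM of brain at day 50 showed, from the same libraries. The linear difference was -0.61 (adjusted p = 0.372) with library sizes taken as equal. The circular difference was -1.52 (SE 0.48, edgeR adjusted p = 0.0487), and this call was lost in DESeq2 (-1.55, adjusted p = 0.477). In edgeR it was lost with equal library sizes (-1.36, adjusted p = 0.196) and linear library sizes (-1.40, adjusted p = 0.0997). The replicate block lost it as well (-1.55, adjusted p = 0.106, edgeR). It was also lost without any 1 of 5 of the 6 libraries, with values of -1.70 to -1.26, the exception being dilp 2-3,5 replicate 1. The circular to linear ratio was not called, at -0.75 (SE 0.46, edgeR adjusted p = 0.567).

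At day 30 linear Lsd-2 in brain was 399 to 526 linear reads on that scale in wDah and 299 to 362 in dilp 2-3,5. The groups did not overlap, with a log2 difference of -0.74 (SE 0.17, edgeR adjusted p = 0.0643). At day 10 the difference was -0.21 (adjusted p = 0.935).

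Linear reads of bmm gave the only other call, in fat body at day 10. The wDah libraries held 81, 65 and 69 linear reads and the dilp 2-3,5 libraries 124, 156 and 93, with no overlap. The log2 difference was 0.93 (SE 0.17, edgeR adjusted p = 0.00556), the age and tissue where the pooled bmm FPKM also stood furthest apart. It missed the threshold without wDah replicate 1 (0.89, adjusted p = 0.0687), without wDah replicate 3 (0.88, adjusted p = 0.0524) and with equal library sizes (0.79, adjusted p = 0.235). The circbmm reads were 5, 8 and 10 in wDah and 19, 7 and 24 in dilp 2-3,5, and they overlapped.

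Over all tissues and ages 28 genotype comparisons of the 4 circular to linear ratios had reads enough to test, and none passed with edgeR without the replicate block. With the block 2 of 28 passed, circLsd-2 in fat body at day 50 and the short ACC circle in thorax at day 10. The labels name no pairing of libraries in either comparison. Without the block 4 had an unadjusted p under 0.05 with edgeR, 1 with DESeq2 and 4 with the beta-binomial test, neither of which called any. Over all circRNAs the same test called 0.671% of ratios in brain, 1.08% in thorax, 0.399% in gut and 1.59% in fat body. For circular reads 1 of 28 member comparisons was called (circLsd-2 in brain at day 50), beside 2.99% in brain, 1.82% in thorax, 1.36% in gut and 2.25% in fat body. For linear reads 2 of 48 were called (Lsd-2 in brain at day 50 and bmm in fat body at day 10), beside 2.08% in brain, 3.1% in thorax, 0.69% in gut and 1.21% in fat body. The largest uncalled ratio difference was that of the short ACC circle in thorax at day 10, with 7, 2 and 13 circular reads in wDah and 2, 2 and 3 in dilp 2-3,5 (log2 -2.18, SE 0.67, edgeR adjusted p = 0.127).

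Averaged over the 3 ages, the log2 ratio of circLsd-2 differed between the genotypes by -0.45 in brain, -0.36 in thorax, 0.50 in gut and -0.13 in fat body. An exact two-sided permutation of libraries within each age gave p = 0.1425, 0.337, 0.3015 and 0.678, and 0.449 at the lowest after adjustment over 4 tissues. Between days 30 and 50 the ratio differed by -0.98 in brain (exact permutation p = 0.03, 0.12 adjusted over 4 tissues). The long circle of ACC in fat body differed by 0.58 between the genotypes over the 3 ages, with the same sign at each (0.56, 0.51 and 0.67, exact permutation p = 0.02075, 0.083 adjusted over 4 tissues). circbmm in thorax differed by -1.17 over the 3 ages (exact permutation p = 0.0075, 0.03 adjusted over 4 tissues and 0.12 over all 16 tests of the 4 circRNAs). That value rested on libraries with 0 to 8 circular reads. It was -0.30 without the 0.5 read added to each count (adjusted p = 0.8) and missed the threshold on leaving out any of 7 of the 18 libraries (wDah day 10 replicates 1 and 3, wDah day 30 replicate 2, dilp 2-3,5 day 10 replicate 1, day 30 replicate 3 and day 50 replicates 1 and 2), where it was -1.15 to -1.004. The genotype effect on circLsd-2 in fat body was larger at day 10 than at the later ages by 1.86 on the log2 scale (SE 0.46, edgeR adjusted p = 0.0124), where 0.606% of fat body circRNAs passed. It missed the threshold in DESeq2 (1.84, adjusted p = 0.346) and on leaving out wDah day 10 replicate 1 or 3, dilp 2-3,5 day 10 replicate 1 or 3, or wDah day 50 replicate 1, where it was 1.62 to 1.77. The median of this difference over all 495 fat body circRNAs was 0.74. The comparison sets day 10 against the later ages and thus 1 batch against the other.

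In polysome-bound RNA of the day 10 fat body circLsd-2 was present in all 6 libraries. The wDah libraries held 9, 13 and 10 circular beside 316, 427 and 946 linear reads, and the dilp 2-3,5 libraries 22, 15 and 19 beside 608, 570 and 832. The share of circular reads was thus 1.05 to 2.95% in wDah and 2.23 to 3.49% in dilp 2-3,5, overlapping ranges. As a part of all circular reads, circLsd-2 differed between polysome and total RNA by -0.29 in wDah (SE 0.31, edgeR adjusted p = 0.794) and by -0.06 in dilp 2-3,5 (SE 0.26, adjusted p = 0.977). In that test edgeR called 0% of circRNAs in wDah (23 of 204 at an unadjusted p under 0.05, and 1 called by DESeq2) and 4.37% in dilp 2-3,5. With library sizes taken as equal, 76 of 204 and 150 of 206 circRNAs were called, circLsd-2 among them with -1.56 (adjusted p = 0.00508) and -1.81 (adjusted p = 0.00036, edgeR). Between the genotypes in polysome RNA circLsd-2 differed by 0.30 (SE 0.47, adjusted p = 0.977), where 0.559% of circRNAs were called.

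Set against the linear reads, all 4 member circles were lower in polysome than in total RNA of dilp 2-3,5. The log2 difference was -1.61 for circLsd-2 (SE 0.46, edgeR adjusted p = 0.00228), -2.35 for circbmm, -1.96 for the long (circACC long) and -2.41 for the short circle of ACC (circACC short) (adjusted p = 0.000799, 0.0012 and 0.000271). This was general, since 57.8% of circRNAs passed and their median was -1.52. In wDah the ratio differed by -0.96 for circLsd-2 (adjusted p = 0.493), and edgeR called 0% of circRNAs, with 30 of 204 at an unadjusted p under 0.05.

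Of the other genes of fat storage, lists of signalling, lipases, droplet proteins, synthesis, oxidation and transport gave few 2-fold values outside the gut. In brain 0 of 192 values were higher and 10 lower, in thorax 1 and 2 of 201, in fat body 3 and 7 of 202, and in gut 19 and 2 of 215. Over all genes 0.913% of values were higher and 2.49% lower in brain, 1.31% and 3.11% in thorax, 2.95% and 4.35% in fat body and 2.85% and 2.64% in gut. The 14 genes of Akh signalling gave none of 42 values in each tissue, which is near those backgrounds. In gut 11 of 24 lipase values were 2-fold higher in dilp 2-3,5, beside 2.85% of all gene values. Of the 8 listed lipases 3 were so at all 3 ages, and the share of all genes that were so is not given here. Lip3 went from 2.30, 0.725 and 1.07 to 20.7, 10.7 and 8.53 FPKM. CG6283 went from 53.4, 41.8 and 53.9 to 331, 269 and 165 FPKM, and CG6271 from 3.83, 3.91 and 4.49 to 15.3, 15.3 and 10.8 FPKM. These 3 lipases, named because they passed at all 3 ages, were several times higher in the mutant gut. The droplet lipases bmm and Hsl were not, and the other listed lipases are not shown.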

How the data were processed

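Ribosomal RNA-depleted libraries were mapped to BDGP6. For the FPKM the authors used HISAT2 2.0.4, StringTie 1.3.0 and Cuffdiff 2.2.1 and deposited 1 pooled FPKM value per group for each transcript. For circRNAs the authors mapped with STAR 2.5.2b, used the caller DCC and deposited raw circular and linear read counts, filtered to circRNAs with repeated support. The deposited back-splice positions (coordinates, not a measured score) gave the circles' exons. Columns of the authors' own beta-binomial comparisons (p-values) were not used.

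Gene FPKM were summed over transcripts, compared as log2(FPKM + 1) among genes with at least 1 FPKM in 1 of 2 groups, and called at 2-fold. Counts were tested per tissue and age with edgeR 4.0.16 (R 4.3.3) by quasi-likelihood, with TMM library sizes for circular or linear reads alone, a minimum of 10 reads and Benjamini-Hochberg adjustment over all circRNAs, called at 0.05. The ratio was tested as the circular against linear term between genotypes, with a term per library. DESeq2 1.42.0 and a beta-binomial test were alternatives, with exact permutations enumerated in numpy 2.4.6 and 0.5 read added for log ratios. The edgeR fits of the ratio and of circular reads recovered the direction of changes in simulated counts. DESeq2 and the beta-binomial test were not run on these.

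All 9 members are named, as are other pathway genes past 2-fold at 3 ages (up to 2 per direction and tissue) and the 3 genes most correlated with each member. CG6271 was added as a further lipase past 2-fold at all 3 ages and was chosen after its values were seen. Members, lists and tests were chosen with earlier results of these data known. Samples were grouped by their labels. Shares of 0 are given with the limit that 3 reads allow, for counting error only. The 3 replicates per group are biological, per the study's methods. Of 78 replicate pairs none was identical. The labels name no pairing of libraries. The deviations of same-numbered libraries correlated above 0.1 at all 3 numbers in 1 of 12 genotype comparisons. That was fat body at day 50, with r = 0.31, 0.10 and 0.16. In the other comparisons r ran from -0.37 to 0.20, so the replicate block is a sensitivity setting and not a known pairing. Gene positions come from the BDGP6 annotation.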

Additional observations from a re-analysis of the deposited data

Results flagged for a closer look

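The genotype effect on the circular to linear ratio of circLsd-2 in fat body stood out because it differed between ages. At day 10 the ratio was higher in dilp 2-3,5 than in wDah by 1.07 on the log2 scale (SE 0.42), and at days 30 and 50 it differed by -0.73 (SE 0.31) and -0.90 (SE 0.33), none of which passed alone in edgeR without the replicate block. With the block the day 50 value was -0.89 (edgeR adjusted p = 0.0189), though the labels name no pairing of libraries. The day 10 effect minus the mean of the later effects was 1.86 (SE 0.46, edgeR adjusted p = 0.0124), against a median of 0.74 over 495 circRNAs. The day 10 samples were generated separately from the later ones, so age and batch cannot be told apart.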

How the results depend on the processing

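Of 621 values from other settings, 588 kept their direction and side of the threshold, and of 876 with a library left out, 848 did. A sign change in a value past the threshold in neither fit was counted as kept (97 of 1449 settings over 129 results, with values of at most 0.56 on the log2 scale). With 0.1 FPKM added, 4 values were 2-fold higher in gut and 1 lower in fat body. With 10 FPKM added none was lower in brain (0) or thorax (0), and with a minimum of 5 FPKM none in thorax (0). At 1.5-fold, 8 were lower in brain, 4 higher and 1 lower in gut, and 4 higher and 1 lower in fat body. The call of circLsd-2 circular reads in brain at day 50 was lost in DESeq2 (-1.55, adjusted p = 0.477). In edgeR it was lost with equal library sizes (-1.36, adjusted p = 0.196) and with linear library sizes (-1.40, adjusted p = 0.0997). With the replicate block it was lost too (-1.55, adjusted p = 0.106, edgeR). The value was -1.97 to -1.26 with a library left out. Linear Lsd-2 there was -0.61 with equal library sizes. Circular reads in fat body at day 30 were -1.09 with no minimum, -0.92 with the replicate block (adjusted p = 0.00266, edgeR) and -1.10 to -0.69 with a library left out. The ratio in fat body was 0.82 to 1.45 with a library left out at day 10 and -0.89 with the replicate block at day 50, and the short ACC circle in thorax at day 10 was -2.29 with that block (adjusted p = 0.0306, edgeR). The block changed no circLsd-2 call other than these 3. Libraries with the same replicate number are not known to be paired in any comparison. The change with age in fat body was 1.84 in DESeq2 and 1.62 to 2.26 with a library left out. Polysome circular reads of circLsd-2 were -1.56 in wDah and -1.81 in dilp 2-3,5 with equal library sizes, and -1.61 in dilp 2-3,5 against linear reads. The causes were not tested. Depth limits the gut and the rarer circles, with under 10 reads in most libraries outside fat body.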

Other observations

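Over the 24 groups, the genes whose log2(FPKM + 1) followed a member most closely were found among 10121 genes, as a description of points that share libraries and tissues. Akh was closest to CG14075 (r = 0.98), Nagk and TkR99D (both 0.95). AkhR was closest to CG3246, Acer and Nepl11, with r of 0.998, 0.997 and 0.996. Lsd-1 was closest to dob, Npc2h and CAHbeta (0.98), mdy to CG3597 (0.99), AGBE and bou (0.98), and FASN1 to CG3829, Idgf6 and Jabba (0.99), the last a protein of lipid droplets. ACC was closest to pug (0.98), Obp99a and Odc1 (0.97), and Lsd-2 to CG3164 (0.97), Mtpalpha and CG34376 (0.96). The lipases had looser neighbours, bmm with Hnf4, atl and CycD (0.93, 0.93 and 0.92) and Hsl with Cpsf100, Gp93 and Atg3 (0.93, 0.92 and 0.92).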
